A study of Homo sapiens with 8 samples.

Results

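The genes described here are 10 transcripts that ERK signalling is known to raise and that serve as a readout of it: the phosphatases DUSP4, DUSP5 and DUSP6, the Sprouty and Spred genes SPRY2, SPRY4, SPRED1 and SPRED2, and the ETS transcription factors ETV1, ETV4 and ETV5. They were chosen by symbol, with earlier results of these data known, and 10 of 58302 genes in the count table are members. All 10 had enough counts to enter the test across 16256 genes. The 8 RNA-seq libraries are of PATU-8902 cells, an established human line of pancreatic adenocarcinoma, and belong to a study of acquired resistance to blocking TEAD factors, through which the coactivators YAP and TAZ, encoded by YAP1 and WWTR1, act on transcription. The resistant group (3 libraries) is a single line, propagated in vitro under doxycycline from 1 shYAP/WWTR1 tumour that had grown in a Nu/Nu mouse, and it carries the label resistant to the TEAD inhibitor GNE-7883. The shYAP_TAZ group (3 libraries) is the parental line with hairpins against YAP1 and WWTR1, labelled sensitive. The shNTC group (2 libraries) is the parental line with a control hairpin, also labelled sensitive. The sources used here do not say whether either sensitive line received doxycycline. The labels' descriptions say xenograft, while their protocols say that cells were lysed on the plate, and this conflict is not resolved here.

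Growth factor receptors switch on RAS, which drives the kinases RAF, MEK and ERK, and ERK in turn induces genes that hold the same cascade back. DUSP phosphatases remove the activating phosphates from ERK: DUSP6 does so in the cytoplasm, and DUSP4 and DUSP5 in the nucleus. Sprouty proteins restrain signalling between receptors and RAF, and Spred proteins bring the RAS inactivator neurofibromin to the membrane. ETV1, ETV4 and ETV5 form the PEA3 group of ETS activators, whose genes are held down by the repressor CIC until ERK signalling relieves it. This feedback layer is a common gauge of the pathway in tumour cells.

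Total counts were 17521154 to 22629727 per library. Neither hairpin target overlapped with the shNTC libraries, where both were highest: YAP1 was at 102 ± 2.82, 156 ± 0.85 and 382 ± 9.26 CPM in resistant, shYAP_TAZ and shNTC libraries, and WWTR1 at 71.1 ± 4.69, 50.2 ± 0.882 and 126 ± 0.774 CPM (SD, n = 3, 3 and 2). CPM are counts scaled to library size, with TMM factors between libraries. The label of an epithelial tumour line fitted its markers, since 6 keratin and adhesion genes summed to 6084 to 6565 CPM in resistant, 4671 to 4866 CPM in shYAP_TAZ and 3847 to 4094 CPM in shNTC libraries. Summed markers of other cell types were low in resistant, shYAP_TAZ and shNTC libraries. The 8 fibroblast genes summed to 16.6 to 17.8, 12.0 to 13.0 and 17.5 to 18.7 CPM, led by COL1A1 in the resistant and ACTA2 in the shNTC libraries. The 6 endothelial genes, led by VWF, summed to 4.42 to 5.96, 9.51 to 11.7 and 1.76 to 2.05 CPM, with KDR at 0. The 6 leukocyte genes, led by LAPTM5 and LYZ, summed to 12.5 to 14.7, 8.34 to 8.92 and 10.1 to 11.3 CPM, with CD68 at 0. Whether the libraries within each group are of separate cultures is not in the labels, so p-values measure only their spread, which may be technical. Resistance and growth in the mouse, any difference in doxycycline and other differences between lines cannot be told apart, nor can the hairpins' effect from other differences between the shYAP_TAZ and shNTC lines.

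Promoters were searched for the octamers bound by CIC because this repressor links ERK to the PEA3 genes. RefSeq promoter sequence (GRCh38.p14) was at hand for 6 of the 10 genes, in 14 promoters, and the 250 bases before each start were read. No promoter of DUSP4, DUSP5, ETV4 or ETV5 was at hand, so ETV1 was the only PEA3 gene searched. The letters searched on both strands were TGAATGAA, TGAATGGA, TCAATGAA and TCAATGGA. One promoter of ETV1 and that of DUSP6 held a match. These are 2 of the 14 promoters and 2 of the 6 genes. Any of the 4 occurred in 3.18% of all 35116 promoters and in 3.92% of their genes. The motifs were chosen after the sequences had been read, so the 2 matches are a description and were not tested. The match in ETV1 begins 125 bases before the start and that in DUSP6 begins 24 bases before it, on the opposite strand. The ETV1 sequence is the 250 bases upstream of its start on chromosome 7 (chr7:13991426-13991675, minus strand) and overlaps no annotated exon. The DUSP6 sequence is a stretch of 30 bases on chromosome 12 (chr12:89352507-89352536, minus strand). It lies within the annotated DUSP6 gene (89347232 to 89353271), and the 250 bases searched for DUSP6 overlap 2 annotated exons. Capitals mark the octamer.
ETV1: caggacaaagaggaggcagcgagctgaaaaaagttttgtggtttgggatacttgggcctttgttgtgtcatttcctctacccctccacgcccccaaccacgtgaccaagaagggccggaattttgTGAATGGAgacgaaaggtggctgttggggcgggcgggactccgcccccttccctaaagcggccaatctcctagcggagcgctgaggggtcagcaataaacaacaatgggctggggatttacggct
DUSP6: cggagaatgtaTCCATTGAgacgctcgctg
The TEAD motif GGAATG, the AP-1 motif TGANTCA, the cyclic AMP response element TGACGTCA and the ETS motif CCGGAAGT were in none of the 14 promoters, against 11.9%, 6.57%, 1.65% and 3.42% of all promoters. A match is a run of letters and not a shown binding site. No conclusion is drawn from an absence, since 14 promoters of 6 genes, some overlapping, are few and only 250 bases were read. Levels of CIC itself, given for its role and outside the naming rule, were 65.8 ± 4.56 CPM in resistant, 72.5 ± 4.12 CPM in shYAP_TAZ and 60.7 ± 9.70 CPM in shNTC libraries. Its excess in shYAP_TAZ over shNTC was small (log2 fold change 0.26 ± 0.09, edgeR adjusted p = 0.0132). That excess rested on 1 library, since it was 0.09 without shNTC replicate 2 and 0.43 without shNTC replicate 1. It also did not pass in a limma-trend fit of all libraries, given with the processing limits.

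Per kilobase, the 10 genes spanned a wide range, and their order differed between the lines. Values here are RPKM as deposited, which are counts scaled to gene length in kilobases and to the library total. In resistant libraries DUSP5 stood first at 112 ± 2.71 RPKM (SD, n = 3), followed by ETV4 at 51.5 ± 0.833 and DUSP4 at 50.9 ± 1.65 RPKM, whose ranges overlapped. In shYAP_TAZ libraries DUSP4 stood first at 134 ± 2.63 RPKM, followed by ETV4 at 75.3 ± 2.10 and DUSP5 at 66.1 ± 0.55 RPKM. In shNTC libraries DUSP4 also led, at 58.3 ± 2.61 RPKM (SD, n = 2), ahead of ETV4 at 49.0 ± 4.23 and ETV5 at 31.6 ± 0.51 RPKM, while DUSP5 was eighth at 9.23 ± 0.741 RPKM. The lowest level was that of ETV1 in resistant (0.674 ± 0.142 RPKM) and shNTC libraries (2.06 ± 0.0689 RPKM), and that of SPRED1 in shYAP_TAZ libraries (5.50 ± 0.0597 RPKM). Neighbours in these orders had separate ranges except ETV4 and DUSP4 in resistant libraries and DUSP6 and SPRED2 in shYAP_TAZ libraries. RPKM assumes that the gene length used by the authors holds for the transcripts made.

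**Figure D1:**
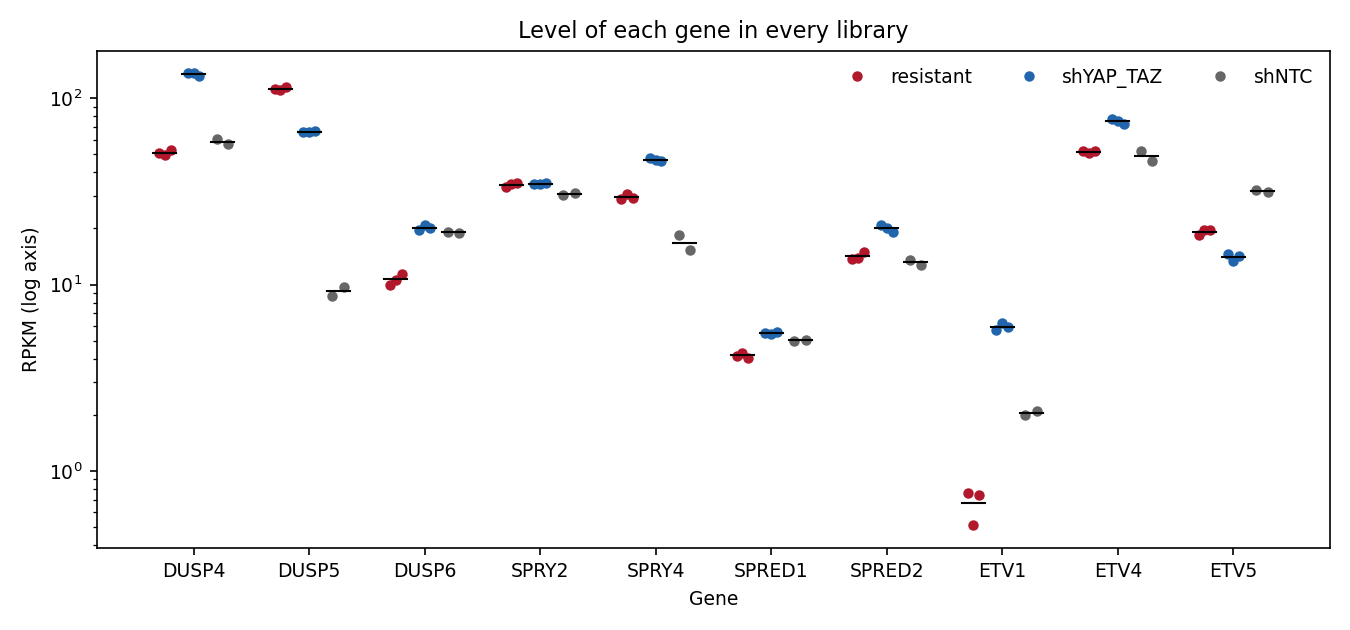
RPKM of the 10 genes (horizontal axis) in each library on a log axis, with resistant, shYAP_TAZ and shNTC libraries as coloured points and a black line at the group mean. DUSP5 is highest in the 3 resistant libraries (110.1 to 115 RPKM) and ETV1 lowest in them (0.511 to 0.765 RPKM), whereas SPRY2 lies between 30.1 and 34.9 RPKM in all 8.

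Among the phosphatases, the 3 genes moved in 3 different ways. DUSP5, a nuclear phosphatase with high selectivity for ERK (ENSG00000138166, chromosome 10, 110497838 to 110511544, GRCh38), was at 281, 276 and 293 CPM in resistant libraries, 169.7, 170.5 and 171 CPM in shYAP_TAZ libraries and 22.6 and 25.1 CPM in shNTC libraries. No group overlapped another, and the gene was lowest in the shNTC line. In bulk RNA, fewer cells expressing a gene and less of its RNA per cell cannot be told apart. It rose by 2.83 ± 0.07 on the log2 scale in shYAP_TAZ against shNTC (edgeR adjusted p = 6.7e-17) and again by 0.73 ± 0.05 in resistant against shYAP_TAZ (edgeR adjusted p = 2.0e-10). The resistant line stood 11.8-fold above shNTC by the fitted log2 fold change of 3.57 ± 0.07 (edgeR adjusted p = 5.6e-19).

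DUSP4, a nuclear phosphatase of ERK, JNK and p38 (ENSG00000120875, chromosome 8, 29333064 to 29350668), was at 363, 351 and 379 CPM in resistant libraries, 998, 996 and 959 CPM in shYAP_TAZ libraries and 444 and 413 CPM in shNTC libraries. The shYAP_TAZ libraries were all far above the others, and the resistant ones were all below shNTC. DUSP4 rose by 1.20 ± 0.06 (log2) in shYAP_TAZ against shNTC (edgeR adjusted p = 8.6e-13) and fell by 1.43 ± 0.05 in resistant against shYAP_TAZ (5.7e-15). Against shNTC it was 0.23 ± 0.06 lower in the resistant line, as a log2 fold change of -0.23 (edgeR adjusted p = 0.00192). Without shNTC replicate 1 that log2 fold change was -0.16 for DUSP4. Chromosome 8 genes shifted around it: the 51 tested genes within 5 Mb had a median log2 fold change of -0.19 in shYAP_TAZ against shNTC, -0.30 in resistant against shYAP_TAZ (-0.55 over the 119 genes within 10 Mb) and -0.74 in resistant against shNTC. The part of that shift in the DUSP4 differences was not tested. DUSP4 had the opposite sign to its neighbours' median in shYAP_TAZ against shNTC. It had the same sign in resistant against shYAP_TAZ and in resistant against shNTC. Over the 574 other tested genes of chromosome 8, the medians in these comparisons were -0.29, -0.22 and -0.54.

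DUSP6, the cytoplasmic ERK phosphatase often used as an ERK readout (ENSG00000139318, chromosome 12, 89347232 to 89353271), was at 44.5, 47.3 and 51.7 CPM in resistant libraries, 90.2, 95.9 and 91.4 CPM in shYAP_TAZ libraries and 89.0 and 86.6 CPM in shNTC libraries. The resistant libraries stood apart below both other groups, which lay close together without overlapping. Its log2 fold change was 0.08 ± 0.07 in shYAP_TAZ against shNTC (edgeR adjusted p = 0.347), which did not pass the test. It fell by 0.95 ± 0.06 in resistant against shYAP_TAZ (edgeR adjusted p = 4.3e-11) and by 0.88 ± 0.07 against shNTC (6.9e-10). The antisense gene AC024909.2 overlaps DUSP6, and 36.4% of the 50-base stretches of the longest DUSP6 transcript also occur in it on the opposite strand. AC024909.2 had 5 to 9 counts in resistant, 8 to 21 in shYAP_TAZ and 10 to 14 in shNTC libraries, against 845 to 2151 for DUSP6 over all libraries. Since the library kit is known not to mark strand, reads of the shared stretch cannot be told apart.

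The makeup of the phosphatase trio differed between the lines. Summed over DUSP4, DUSP5 and DUSP6, the level was 174 ± 4.88 RPKM in resistant, 221 ± 2.50 RPKM in shYAP_TAZ and 86.6 ± 2.09 RPKM in shNTC libraries. DUSP5 held 64.6 ± 0.263% of that sum in resistant, 29.95 ± 0.534% in shYAP_TAZ and 10.7 ± 1.11% in shNTC libraries. DUSP4 held 29.3 ± 0.237%, 60.9 ± 0.615% and 67.3 ± 1.38% in the same order of groups, and DUSP6 held 6.13 ± 0.321%, 9.14 ± 0.259% and 22.0 ± 0.27%. For each of the 3 genes, the ranges of these shares did not overlap between groups. Shares of a sum depend on one another, so they describe the makeup and were not tested.

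**Figure D2:**
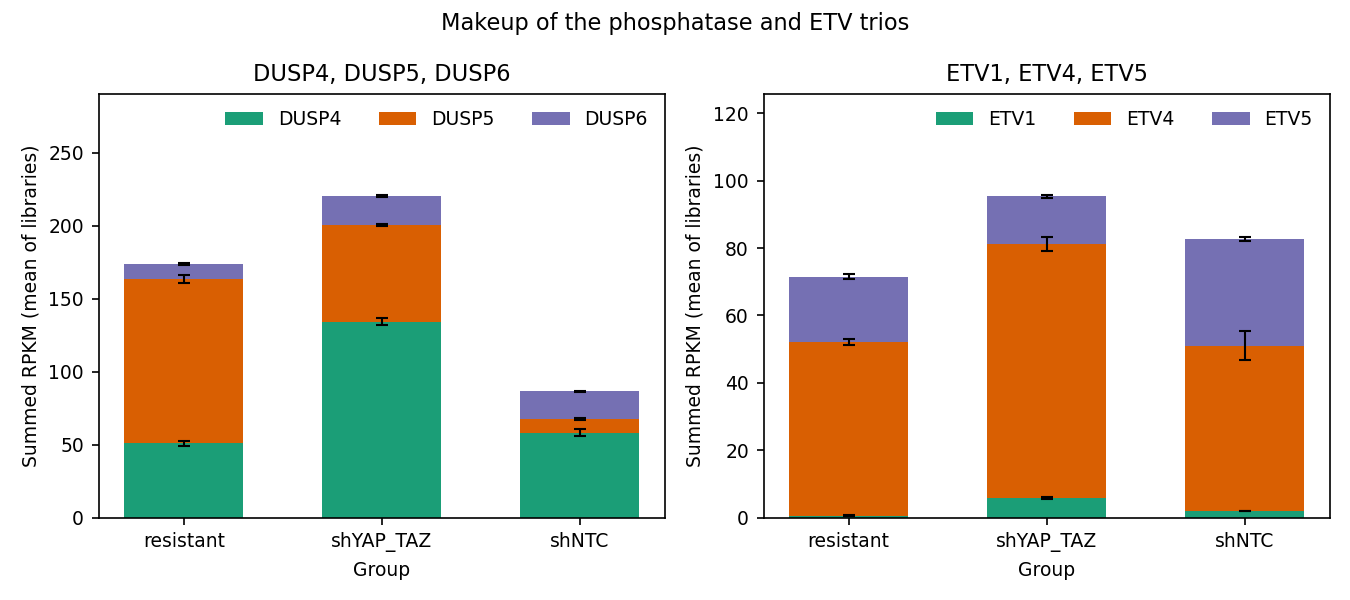
Stacked group means in RPKM of DUSP4, DUSP5 and DUSP6 (left) and of ETV1, ETV4 and ETV5 (right) for resistant, shYAP_TAZ and shNTC libraries, with each error bar the SD of the gene whose segment ends there (n = 3, 3 and 2). DUSP5 makes up 64.6% of the phosphatase sum in resistant libraries and 10.7% in shNTC libraries, and ETV5 makes up 26.9% and 38.3% of the ETV sum.

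The Sprouty genes differed in how far they moved. SPRY4 (ENSG00000187678, chromosome 5, 142310427 to 142326455), which inhibits RAS activation downstream of receptors, was at 140.4, 149 and 144 CPM in resistant libraries, 239.9, 233 and 231 CPM in shYAP_TAZ libraries and 92.9 and 76.4 CPM in shNTC libraries. The 3 groups did not overlap, and the resistant line lay between shYAP_TAZ and shNTC. SPRY4 rose by 1.47 ± 0.07 (log2) in shYAP_TAZ against shNTC (edgeR adjusted p = 6.0e-13). It fell by 0.70 ± 0.06 in resistant against shYAP_TAZ (edgeR adjusted p = 4.6e-09) and stayed above shNTC by 0.77 ± 0.07 (1.1e-08). Its antisense neighbour SPRY4-AS1 overlaps it over 1163 bases and had 56 to 61 counts in resistant, 50 to 71 in shYAP_TAZ and 22 to 36 in shNTC libraries, against 1630 to 5218 for SPRY4 over all libraries.

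SPRY2 (ENSG00000136158, chromosome 13, 80335976 to 80340951), which also binds the ubiquitin ligase CBL, was at 99.9, 103 and 105 CPM in resistant libraries, 106, 106 and 107 CPM in shYAP_TAZ libraries and 93.1 and 94.8 CPM in shNTC libraries. It moved least of the 10 genes across the 3 lines. All shNTC libraries lay below the rest, while resistant and shYAP_TAZ libraries were close together without overlapping. The log2 fold change in shYAP_TAZ against shNTC was 0.18 ± 0.06 (edgeR adjusted p = 0.0128), a call that was lost without shNTC replicate 1 (adjusted p = 0.0503) and with the replicate number as a block (0.0505). SPRY2 passed in neither of the other comparisons, at -0.05 ± 0.05 in resistant against shYAP_TAZ (edgeR adjusted p = 0.41) and 0.13 ± 0.06 in resistant against shNTC (0.0674). In the last comparison it passed without resistant replicate 1 (0.16, adjusted p = 0.04999) and under other settings given with the processing limits. Its 19 tested neighbours within 5 Mb had a median log2 fold change of 0.47 in shYAP_TAZ against shNTC, larger than that of SPRY2 itself. The median was 0.20 over the 31 genes within 10 Mb and 0.12 over the 315 other tested genes of chromosome 13.

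The Spred pair moved by smaller amounts. SPRED2 (ENSG00000198369, chromosome 2, 65310851 to 65432637) was at 56.2, 56.8 and 61.9 CPM in resistant libraries, 87.9, 84.2 and 80.4 CPM in shYAP_TAZ libraries and 57.2 and 53.4 CPM in shNTC libraries. Resistant and shNTC libraries overlapped, with the shYAP_TAZ ones above both. SPRED2 rose by 0.61 ± 0.07 (log2) in shYAP_TAZ against shNTC (edgeR adjusted p = 2.1e-07) and fell by 0.53 ± 0.06 in resistant against shYAP_TAZ (2.4e-07). The difference between resistant and shNTC was 0.08 ± 0.07 (edgeR adjusted p = 0.343).

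SPRED1 (ENSG00000166068, chromosome 15, 38252326 to 38357249), the gene mutated in Legius syndrome, was at 31.8, 32.8 and 31.2 CPM in resistant libraries, 43.4, 42.7 and 43.4 CPM in shYAP_TAZ libraries and 39.3 and 39.6 CPM in shNTC libraries. All 3 resistant libraries lay below the others. The log2 fold change in shYAP_TAZ against shNTC was 0.13 ± 0.07 (edgeR adjusted p = 0.107) and did not pass the test. SPRED1 fell by 0.43 ± 0.06 in resistant against shYAP_TAZ (edgeR adjusted p = 3.4e-06) and by 0.30 ± 0.07 against shNTC (6.6e-04). Of the summed RPKM of SPRED1 and SPRED2 alone, SPRED2 held 77.3 ± 1.28%, 78.5 ± 0.793% and 72.4 ± 1.08% in resistant, shYAP_TAZ and shNTC libraries.

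Among the ETS factors, ETV1 and ETV5 differed in opposite directions in shYAP_TAZ against shNTC. ETV1 (ENSG00000006468, chromosome 7, 13891228 to 13991425), whose promoter with the CIC octamer is printed above, was at 5.80, 3.86 and 5.71 CPM in resistant libraries, 44.5, 48.4 and 45.7 CPM in shYAP_TAZ libraries and 15.7 and 16.3 CPM in shNTC libraries. No group overlapped another, and the resistant line was the lowest. Its log2 fold change was 1.53 ± 0.10 in shYAP_TAZ against shNTC (edgeR adjusted p = 2.6e-11), -3.16 ± 0.10 in resistant against shYAP_TAZ (4.1e-16) and -1.64 ± 0.12 in resistant against shNTC (3.4e-10). The 8.95-fold lower level in resistant than in shYAP_TAZ libraries was the largest change of any member in that comparison. On log2(RPKM + 1) values, which understate changes of low genes, limma-trend gave smaller changes of ETV1 in the resistant line, -2.05 against shYAP_TAZ and -0.87 against shNTC, both still past the test. The resistant values rest on 69 to 115 counts per library, the fewest of any member.

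ETV5 (ENSG00000244405, chromosome 3, 186046308 to 186110318), an activator of the same PEA3 group, was at 78.3, 83.3 and 84.6 CPM in resistant libraries, 63.7, 58.8 and 62.0 CPM in shYAP_TAZ libraries and 141 and 136 CPM in shNTC libraries. The groups did not overlap, and here the shNTC libraries were the highest. ETV5 fell by 1.17 ± 0.06 (log2) in shYAP_TAZ against shNTC (edgeR adjusted p = 1.6e-12). It rose by 0.42 ± 0.06 in resistant against shYAP_TAZ (edgeR adjusted p = 2.9e-06) and remained 0.76 below shNTC, as a log2 fold change of -0.76 ± 0.06 (1.3e-09). The neighbouring gene DGKG overlaps it over 4651 bases on the same strand and had 97 to 135 counts in resistant, 33 to 41 in shYAP_TAZ and 25 to 40 in shNTC libraries, against 1236 to 2939 for ETV5 over all libraries. Of the 50-base stretches of the longest ETV5 transcript, 2.86% also occur in DGKG.

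ETV4 (ENSG00000175832, chromosome 17, 43527844 to 43579620), the most abundant of the trio per kilobase in every group, was at 143, 139 and 145 CPM in resistant libraries, 219, 214 and 206 CPM in shYAP_TAZ libraries and 148 and 130.0 CPM in shNTC libraries. Resistant and shNTC libraries overlapped, with shYAP_TAZ above both. ETV4 rose by 0.62 ± 0.07 (log2) in shYAP_TAZ against shNTC (edgeR adjusted p = 6.4e-08) and fell by 0.58 ± 0.06 in resistant against shYAP_TAZ (2.2e-08). Between resistant and shNTC the log2 fold change was 0.04 ± 0.07 (edgeR adjusted p = 0.662), and the sign turned without shNTC replicate 2 (-0.064, adjusted p = 0.49). The gene DHX8 runs across ETV4 on the opposite strand. DHX8 had 1185 to 1398 counts in resistant, 1389 to 1545 in shYAP_TAZ and 1261 to 1383 in shNTC libraries. ETV4 had 2485 to 4792 counts over all libraries. The log2 fold changes of DHX8 were 0.05 ± 0.07, -0.10 ± 0.06 and -0.05 ± 0.07 in the 3 comparisons. None of them passed the test (edgeR adjusted p = 0.545, 0.188 and 0.598).

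Summed over ETV1, ETV4 and ETV5, the level was 71.4 ± 0.948 RPKM in resistant, 95.3 ± 2.15 RPKM in shYAP_TAZ and 82.7 ± 4.67 RPKM in shNTC libraries. ETV4 held 72.1 ± 0.803%, 79.0 ± 0.512% and 59.2 ± 1.77% of it in these groups. ETV5 held 26.9 ± 0.956%, 14.8 ± 0.583% and 38.3 ± 1.55%. The remaining share, that of ETV1, was 0.942 ± 0.192%, 6.24 ± 0.355% and 2.49 ± 0.224%.

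Counted by comparison, shYAP_TAZ against shNTC called 7 members higher and 1 lower (ETV5), and DUSP6 and SPRED1 did not pass the test. The background was broad, since 60.7% of all tested genes were called, 30.3% as higher and 30.4% as lower. Of the 10 members, 5 were called and changed at least 2-fold, against 16.4% of all tested genes. The members were chosen with earlier results of these data known, and an excess over all tested genes was not tested. The median log2 fold change of the 10 genes was 0.61, and that of all tested genes was 0.00.

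Resistant against shYAP_TAZ called 2 members higher (DUSP5 and ETV5) and 7 lower, with SPRY2 the exception. Of all tested genes 62.4% were called, 31.0% as higher and 31.4% as lower. DUSP4 and ETV1 changed at least 2-fold, or 2 of the 10, against 14.6% of all tested genes. The members' median log2 fold change was -0.55, and that of all tested genes was 0.00. This comparison and the first share the shYAP_TAZ libraries, and the first and the third share the shNTC libraries.

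Resistant against shNTC called 2 members higher (DUSP5 and SPRY4) and 5 lower (DUSP4, DUSP6, SPRED1, ETV1 and ETV5), with SPRY2, SPRED2 and ETV4 not passing the test. Of all tested genes 62.7% were called, 30.1% as higher and 32.6% as lower. Only DUSP5 and ETV1 changed at least 2-fold among the 10, against 18.4% of all tested genes. The members' median log2 fold change was -0.10, against -0.01 for all tested genes. Library ranges in CPM were apart for 8 of the 10 members here, against 72.4% of all tested genes. In shYAP_TAZ against shNTC they were apart for 10 of 10 members and 71.6% of all tested genes, and in resistant against shYAP_TAZ for 10 of 10 and 67.3%.

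**Figure D3:**
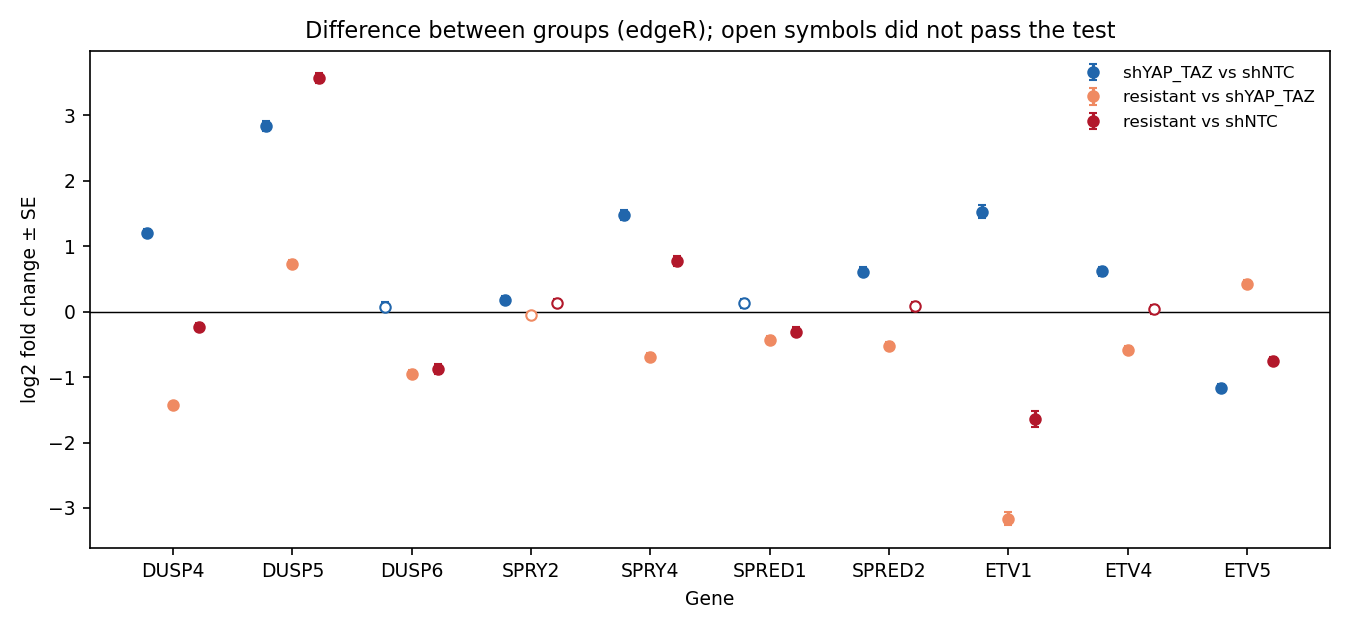
Log2 fold change with its SE for each of the 10 genes in shYAP_TAZ against shNTC (blue), resistant against shYAP_TAZ (orange) and resistant against shNTC (red), with open symbols where the edgeR test was not passed. DUSP5 is above 0 in all 3 comparisons (2.83, 0.73 and 3.57), and ETV5 is the 1 gene called lower in the first (-1.17).

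Of all tested genes, 60.7% were called in shYAP_TAZ against shNTC, 62.4% in resistant against shYAP_TAZ and 62.7% in resistant against shNTC. The counts of the lists that follow are to be read beside these shares, and no excess over them was tested. Other MAP kinase phosphatases followed no single direction. Of 8 tested, 2 rose and 1 fell in shYAP_TAZ against shNTC (median log2 fold change 0.03), 4 rose and 1 fell in resistant against shYAP_TAZ (0.35), and 4 rose and 2 fell in resistant against shNTC (0.53). Without resistant replicate 2 the second count was 2 higher, and without shNTC replicate 1 the last was 1 lower. DUSP1, an immediate early nuclear phosphatase, changed by 1.08 ± 0.09, 0.36 ± 0.07 and 1.45 ± 0.09 on the log2 scale in the 3 comparisons. PTPRR, a receptor-type phosphatase that binds ERK, rose in shYAP_TAZ against shNTC (2.15 ± 0.21) and in resistant against shNTC (2.35 ± 0.20). DUSP10, which acts on JNK and p38, was at 33.8 ± 1.83 CPM in resistant, 97.9 ± 1.05 CPM in shYAP_TAZ and 106 ± 1.43 CPM in shNTC libraries, and fell by 1.53 ± 0.06 against shYAP_TAZ and by 1.65 ± 0.07 against shNTC. DUSP16, another phosphatase of JNK and p38, fell by 0.65 ± 0.08 in shYAP_TAZ against shNTC and rose by 0.39 ± 0.08 in resistant against shYAP_TAZ.

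The remaining restraints of RAS and receptors (10 tested) counted 5 higher and 2 lower in shYAP_TAZ against shNTC (median 0.24), 1 higher and 7 lower in resistant against shYAP_TAZ (-0.31), and 4 higher and 4 lower in resistant against shNTC (0.02). Without any 1 of the 5 shYAP_TAZ and shNTC libraries the first comparison had 1 lower gene in place of 2. IL17RD, which encodes the FGF signalling inhibitor SEF, was at 9.90 ± 1.16 CPM in resistant, 31.9 ± 2.50 CPM in shYAP_TAZ and 27.6 ± 4.11 CPM in shNTC libraries, and fell by 1.68 ± 0.10 (log2) against shYAP_TAZ and by 1.47 ± 0.11 against shNTC. SPRED3, the third Spred gene, rose by 1.43 ± 0.17 in shYAP_TAZ against shNTC and fell by 0.93 ± 0.14 in resistant against shYAP_TAZ, at no more than 6.43 ± 0.557 CPM. ERRFI1, a feedback inhibitor of the EGF receptor, rose by 0.81 ± 0.06 in resistant against shYAP_TAZ and by 0.66 ± 0.07 against shNTC. RASA2, a RAS GTPase-activating protein, rose by 0.77 ± 0.08 in shYAP_TAZ against shNTC and by 0.82 ± 0.08 in resistant against shNTC. CBL, a ubiquitin ligase for activated receptors, rose by 0.60 ± 0.08 in shYAP_TAZ against shNTC.

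Other ETS genes together with CIC (19 tested) counted 8 higher and 3 lower in shYAP_TAZ against shNTC (median 0.13), 5 higher and 11 lower in resistant against shYAP_TAZ (-0.22), and 9 higher and 6 lower in resistant against shNTC (0.12). ETS2, a factor that ERK phosphorylates, was at 94.2 ± 3.41 CPM in resistant, 49.5 ± 0.601 CPM in shYAP_TAZ and 36.9 ± 0.914 CPM in shNTC libraries, and rose by 0.93 ± 0.06 (log2) against shYAP_TAZ and by 1.35 ± 0.07 against shNTC. FLI1, an ETS factor best known from blood and endothelial cells, rose by 1.79 ± 0.14 in resistant against shYAP_TAZ and by 1.82 ± 0.17 against shNTC, to 6.70 ± 0.304 CPM. EHF, an epithelial ETS factor, fell by 0.99 ± 0.06 in shYAP_TAZ against shNTC. ELK3, a ternary complex factor, rose there by 0.75 ± 0.06, and ETS1, an ETS factor that ERK phosphorylates, by 0.62 ± 0.06. ELK4, also a ternary complex factor, fell by 0.89 ± 0.07 in resistant against shYAP_TAZ, and GABPA, the DNA-binding subunit of GA-binding protein, fell by 1.04 ± 0.08 in resistant against shNTC.

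Other ERK-induced genes (14 tested) counted 8 higher and 4 lower in shYAP_TAZ against shNTC (median 0.29), 5 higher and 5 lower in resistant against shYAP_TAZ (-0.02), and 8 higher and 3 lower in resistant against shNTC (0.21). EGR1, an immediate early zinc finger factor, was at 47.4 ± 2.77 CPM in resistant, 12.3 ± 0.616 CPM in shYAP_TAZ and 14.9 ± 2.66 CPM in shNTC libraries, and rose by 1.94 ± 0.09 (log2) in resistant against shYAP_TAZ and by 1.68 ± 0.10 against shNTC. CCND1, which encodes cyclin D1, was at 339 ± 16.6 CPM in resistant, 861 ± 38.6 CPM in shYAP_TAZ and 356 ± 58.7 CPM in shNTC libraries, with a rise of 1.28 ± 0.08 in shYAP_TAZ against shNTC and a fall of 1.34 ± 0.07 in resistant against shYAP_TAZ. LIF, a cytokine of the IL6 family, rose by 0.94 ± 0.06 in resistant against shYAP_TAZ and by 1.86 ± 0.07 against shNTC. The membrane protein gene EMP1 rose by 1.56 ± 0.06 in shYAP_TAZ against shNTC, and the small MAF factor MAFF by 1.05 ± 0.07 there and by 1.42 ± 0.07 in resistant against shNTC.

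Genes of the cascade itself (20 tested) counted as follows: 10 rose and 3 fell in shYAP_TAZ against shNTC (median 0.16), 3 rose and 9 fell in resistant against shYAP_TAZ (-0.11), and 7 rose and 4 fell in resistant against shNTC (0.05). The 3 rises in the second comparison became 1 without shYAP_TAZ replicate 2 or without resistant replicate 2. HRAS, one of the RAS GTPase genes, changed by 1.34 ± 0.08, -0.48 ± 0.06 and 0.86 ± 0.08 on the log2 scale in the 3 comparisons. KSR1, a scaffold of RAF and MEK, rose by 1.45 ± 0.18 in shYAP_TAZ against shNTC and fell by 0.63 ± 0.14 in resistant against shYAP_TAZ, at up to 6.65 ± 0.819 CPM. MAP2K2, which encodes MEK2, rose by 0.75 ± 0.08 in shYAP_TAZ against shNTC and by 0.72 ± 0.08 in resistant against shNTC. MAPK3, which encodes ERK1, fell by 0.51 ± 0.06 in resistant against shYAP_TAZ. The ERK-activated kinase gene RPS6KA1 rose by 0.72 ± 0.06 in resistant against shNTC. Every change given for a gene of these lists other than CIC had an edgeR adjusted p of at most 5.9e-04, reached by KSR1.

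**Figure D4:**
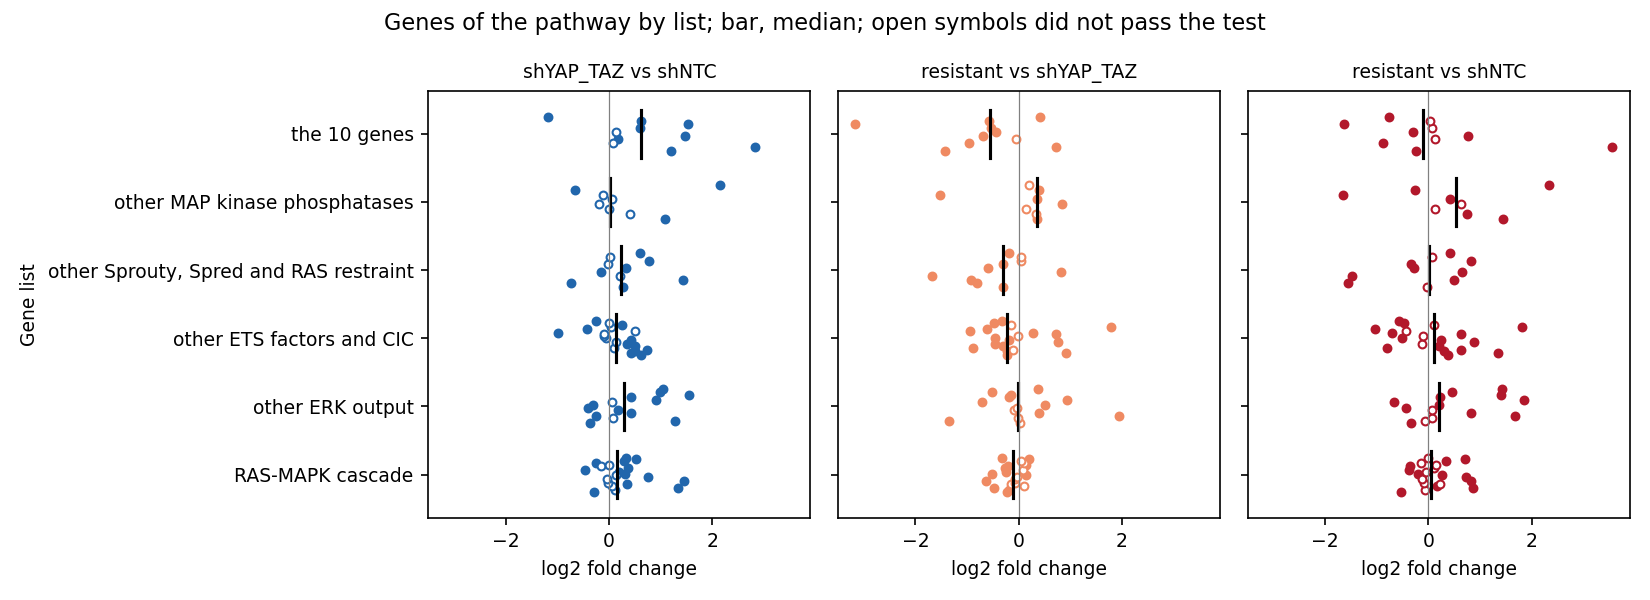
Log2 fold changes (horizontal axis) of the tested genes of each list (rows) in shYAP_TAZ against shNTC, resistant against shYAP_TAZ and resistant against shNTC, with filled points for genes that passed the edgeR test, open points for others and a bar at the median. The 10 genes have medians of 0.61, -0.55 and -0.10, and the cascade genes medians of 0.16, -0.11 and 0.05.

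Neighbouring genes were also examined around the members other than DUSP4 and SPRY2. The median log2 fold change of tested genes within 5 Mb of the other 8 members ran from -0.13 to 0.08 in shYAP_TAZ against shNTC. It ran from -0.19 to 0.34 in resistant against shYAP_TAZ, the highest around DUSP6, which itself fell. It ran from -0.26 to 0.13 in resistant against shNTC. None of the 50-base stretches of the longest DUSP4, DUSP5, SPRY2, SPRY4, SPRED2 and ETV1 transcripts occurs in a transcript of another annotated gene, against 1.67% for SPRED1 and 0.294% for ETV4.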

How the data were processed

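RNA of 8 libraries was sequenced as single-end reads of 50 bases from libraries made with a TrueSeq v2 kit, per the labels' protocols, which say that cells were lysed on the plate, while the descriptions say xenograft. The submitters' processing notes name GSNAP, limma and the build GRCh38.p10. That kit is known not to mark strand. The counter, its annotation and its strand setting are not given in the sources used here. The deposited raw counts are whole numbers per Ensembl gene. The deposited RPKM were computed by the authors, and each of 186545 values equalled the count over the column total and 1 constant per gene to within a relative deviation of 8.5e-07. No column was left out (0).

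Of 58302 genes 58039 matched GENCODE 29, which gave symbols and positions. Counts were tested with edgeR 4.0.16 in R 4.3.3: TMM factors, filterByExpr, 1 quasi-likelihood model with group as its only term, fitted to the 8 libraries together, 3 contrasts tested on both sides, and Benjamini-Hochberg adjustment over all 16256 tested genes, with calls at an adjusted p under 0.05. The SE is the log2 fold change over the root of the F statistic. The common biological coefficient of variation was 5.35%. The fit was tested on simulated data with changes in the shYAP_TAZ libraries only. Far fewer genes were changed there than were called in the real libraries, so that test does not measure false calls here. Same-numbered libraries did not deviate together (r from -0.103 to 0.111), so the numbers were not taken as pairs. Correlations between members over libraries are not given because the libraries form 3 separate groups.

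The members and lists were chosen with earlier results of these data known, and promoter motifs after the sequences had been read. The lists hold MAP kinase phosphatases, restraints of RAS, ETS genes, ERK-induced genes, cascade genes and cell type markers. All members are named; in each other list and comparison, up to 3 called genes with the largest change are named, provided the group with more had a mean of 5 CPM or above, besides genes overlapping a member and the leading markers. Settings tried besides these were DESeq2 1.42.0, factors by RLE or upper quartile, limma-voom, limma-trend (limma 3.58.1) on log2(RPKM + 0.1) and log2(RPKM + 1), other low-count filters, 2 groups only, the replicate block and each library left out.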

Additional observations from a re-analysis of the deposited data

How the results depend on the processing

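Of 490 values of the 10 genes under the alternatives, 481 kept their direction and their side of the threshold, 2 lost a call, 6 gained one and 1 changed sign. All 9 concerned SPRY2 or ETV4. SPRY2 in shYAP_TAZ against shNTC lost its call without shNTC replicate 1 and with the replicate number as a block (0.17, adjusted p = 0.0505); the block changed no other call of a member. SPRY2 in resistant against shNTC gained one with upper-quartile factors (0.19, adjusted p = 0.00856), with at least 1 CPM in 3 libraries (0.13, 0.0469), in the 3 limma-trend fits on log2 RPKM (0.16 to 0.17, 0.00754 to 0.00878) and without resistant replicate 1. ETV4 in resistant against shNTC was -0.064 without shNTC replicate 2 and 0.15 without shNTC replicate 1, and it passed the test in no alternative. CIC in that comparison was -0.044 without shNTC replicate 2, against 0.12 with all libraries; leaving out shNTC replicate 1 gave a call (0.31, adjusted p = 0.00436). The cause was not tested. Among the 10 genes, the called number was 7 or 8 in shYAP_TAZ against shNTC, 9 in every alternative in resistant against shYAP_TAZ, and 7 or 8 in resistant against shNTC. Leaving out 1 library kept them in the same ranges; without an shNTC library the lone one is assumed to vary like the other groups. Of 882 values of the other named genes, 877 kept direction and call. KSR1 in resistant against shYAP_TAZ lost its call in the unfiltered limma-trend fit (-0.53, adjusted p = 0.0781). CIC in shYAP_TAZ against shNTC lost its call in the same limma-trend fit (0.26, adjusted p = 0.0931). On log2(RPKM + 1) values, 1 or more of the limma-trend changes each of ETV1, PTPRR, SPRED3, KSR1, IL17RD and FLI1, all low in at least 1 group, were over 1.5 times smaller and kept their calls; KSR1 was 0.50 in shYAP_TAZ against shNTC and -0.25 in resistant against shYAP_TAZ. No scaling moved the median of all genes by over 0.1 (log2). ETV1 in resistant libraries has the fewest counts of any member.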
